A study of Xenopus tropicalis with 12 samples.

Results

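Of 14320 genes tested in Xenopus tropicalis hind limb, 76 were at least 4-fold higher with thyroid hormone (T3) than without it, both in wild type (WT) tadpoles and in TRα (-/-) tadpoles, which lack thyroid hormone receptor α. A gene was included where its mean level was 4-fold or more higher with T3 in each genotype, that is by at least 2 on the log2 scale after 0.1 was added to the group means, and where the highest of the 4 group means was at least 2 CPM. CPM are read counts relative to the library total, after scaling by TMM, a factor that evens out differences in RNA composition. These genes were thus chosen by their T3 changes, which are given here as a description, without a test. Hind limb was taken at the stages 52 to 54 that the labels give, from WT and TRα (-/-) tadpoles of the same parents that were left untreated or kept in 10 nM T3 for 18 hours, the knockouts coming from crosses of TRα (+/-) frogs. The study's paper gives stage 54 for its comparison of the untreated genotypes. Each of the 4 groups was 1 RNA sample, from which 3 libraries were made, 12 in all, and the number of tadpoles in an RNA sample is not given in the sources used here. Since a group was 1 RNA sample, the SDs and p-values below measure the noise of library making and sequencing, and the spread between tadpoles was not measured. The labels name no change in the TRβ gene, and the knockout was not limited to the limb.

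TRs are nuclear receptors that sit on T3 response elements as heterodimers with retinoid X receptors. Without hormone they recruit corepressor complexes that keep histone acetylation low at the target gene, and with T3 these are exchanged for coactivators such as histone acetyltransferases. The same target can thus be held down by the receptor before metamorphosis and turned up by it afterwards. In tadpoles TRα is the receptor present early in the limb bud, whereas the TRβ gene is itself activated by T3, and growth and patterning of the hind limb are among the first visible responses to the hormone. Animals without TRα thus still have a receptor for the hormone. The deposited table carries Ensembl gene IDs without symbols, so genes are named by ID and position, and no role is given to them.

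The libraries held 32649742 to 52430305 counts. Replicate 2 of WT with T3 stood furthest from its group, with a chi-square per degree of freedom of 10.7 and 10.3 against its fellow libraries, and without it the rule still gave 76 genes, and 39 higher without T3 and 18 lower with T3 in the comparisons of genotypes given further on. Among the 76 genes the CV between libraries of an RNA sample had a median of 2.64% in WT with T3 and 3.73% in TRα (-/-) with T3. It was 9.03% in WT and 8.69% in TRα (-/-) without hormone. Scaffold positions follow the JGI 4.2 assembly used in the deposited table, and an exon block is 1 of the exon intervals that the table lists for a gene.

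The first question was how many of the genes past the 4-fold rule in WT also passed it without TRα. In WT 1046 genes passed the 4-fold rule with a group mean of at least 2 CPM, 7.30% of those tested, and in TRα (-/-) 79 did, 0.552%. The 76 genes that passed in both were 0.531% of all genes tested. They made up nearly all of the 79 genes in TRα (-/-) but a small part of the 1046 in WT. Of the 1046, another 451 (43.1%) had a change of 1 to 2 log2 units in TRα (-/-), 428 (40.9%) had a change of 0 to 1 and 91 (8.70%) were below their untreated level. A change of 3 or more in TRα (-/-) was reached by 9 genes (0.860%). These counts depend on the scaling, which acted unequally on the genotypes. The TMM factors were 0.918 to 0.921 in WT and 1.32 to 1.35 in WT with T3. In TRα (-/-) they were 0.854 to 0.876, and 0.926 to 0.956 with T3. TMM thus lowered the T3 changes in WT more than those in TRα (-/-).

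**Figure D1:**
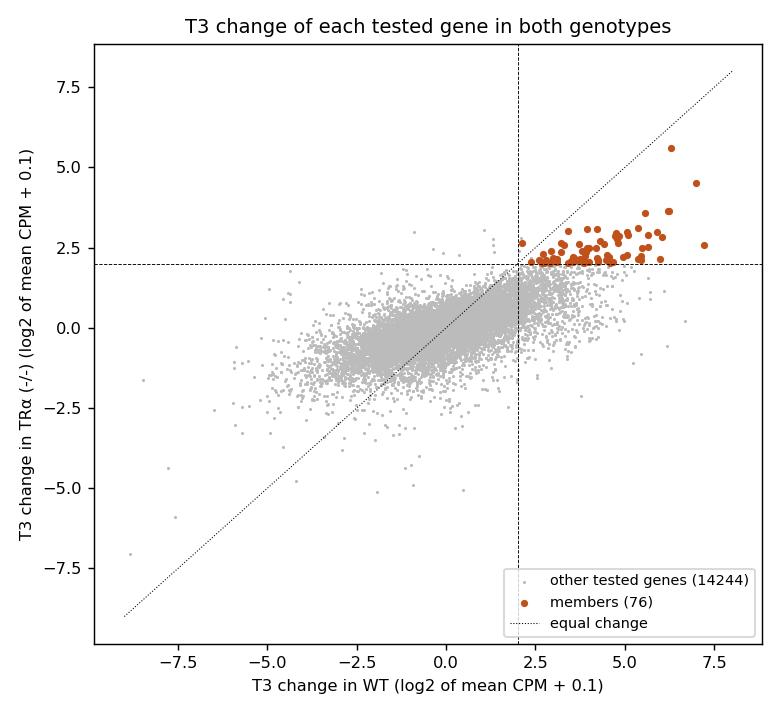
T3 change in WT (x axis) against T3 change in TRα (-/-) (y axis), both as log2 of the mean CPM + 0.1, for each of the 14320 genes tested. Dashed lines mark the threshold of 2 in each genotype and the dotted line marks equal changes. The 76 genes that are past both thresholds and reach 2 CPM in a group are orange, and 75 of them lie below the dotted line.

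Within the 76 genes the change ran from 2.13 to 7.21 in WT, with a median of 4.21, and from 2.01 to 5.60 in TRα (-/-), with a median of 2.28. Over all genes tested these medians were -0.05 and -0.02. In WT 39 genes had a change of 4 or more log2 units, whereas in TRα (-/-) 47 lay under 2.5, close to the threshold. The response was larger in WT for 75 genes and larger in TRα (-/-) for 1, ENSXETG00000003763, at 2.13 in WT and 2.63 in TRα (-/-). The median of the difference between both responses was -1.75, where that of all genes tested was 0.01. This difference was not tested, since both of its parts chose the genes.

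Changes in TRα (-/-) lay close to the threshold on both of its sides. Just inside it were ENSXETG00000007518, ENSXETG00000010882 and ENSXETG00000009104, with changes in TRα (-/-) of 2.01, 2.01 and 2.02. Just outside were ENSXETG00000003512, ENSXETG00000014793 and ENSXETG00000013312, with 1.996, 1.99 and 1.99, although their changes in WT were 3.85, 3.68 and 3.55. In all 6 it was the response in TRα (-/-) that set the side. Scaling by total counts alone, which leaves out the TMM factor, gave 106 genes, all 76 among them, and adding 1 in place of 0.1 to the group means gave 42, all of them among the 76.

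By their median, these genes lay in the lower part of the expression range without T3 and in its upper part with T3 in both genotypes. A rise with T3 follows from the choice of genes. Per kb of exon, which allows genes to be compared, their median level was 1.17 CPM per kb in WT and 28.7 with T3, and 3.09 CPM per kb in TRα (-/-) and 16.2 with T3. Ranked by this level among all genes tested, the median member stood at percentile 19.1 in WT, 84.8 in WT with T3, 34.5 in TRα (-/-) and 75.1 in TRα (-/-) with T3. With T3 single members ran from percentile 10.1 to 98.9 in WT and from 5.68 to 98.0 in TRα (-/-). For the 970 genes that passed the 4-fold rule in WT alone, the medians in the same order were 29.7, 76.2, 51.4 and 67.7. Before T3, 22 of the 76 genes were under 1 CPM in WT and 12 in TRα (-/-). With T3, 19 genes reached 100 CPM or more in WT and 10 did in TRα (-/-). Summed over the 76 genes, the level was 463 ± 4.49 CPM in WT and 7075 ± 57.5 CPM with T3 (SD, n = 3). It was 799.9 ± 3.21 CPM in TRα (-/-) and 4074 ± 45.9 CPM with T3 (SD, n = 3). That the sums were higher with T3 follows from the choice of genes. Between the genotypes the sums did not overlap, without T3 or with it, among libraries of 1 RNA sample per group. A pair of abundant genes, ENSXETG00000007937 and ENSXETG00000016838, carried part of the sums. Without that pair the sums were 284 ± 3.75, 4962 ± 9.04, 596 ± 1.96 and 3136 ± 28.1 CPM (SD, n = 3) in the same order. In bulk RNA, more cells that express a gene and more RNA per cell cannot be told apart.

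**Figure D2:**
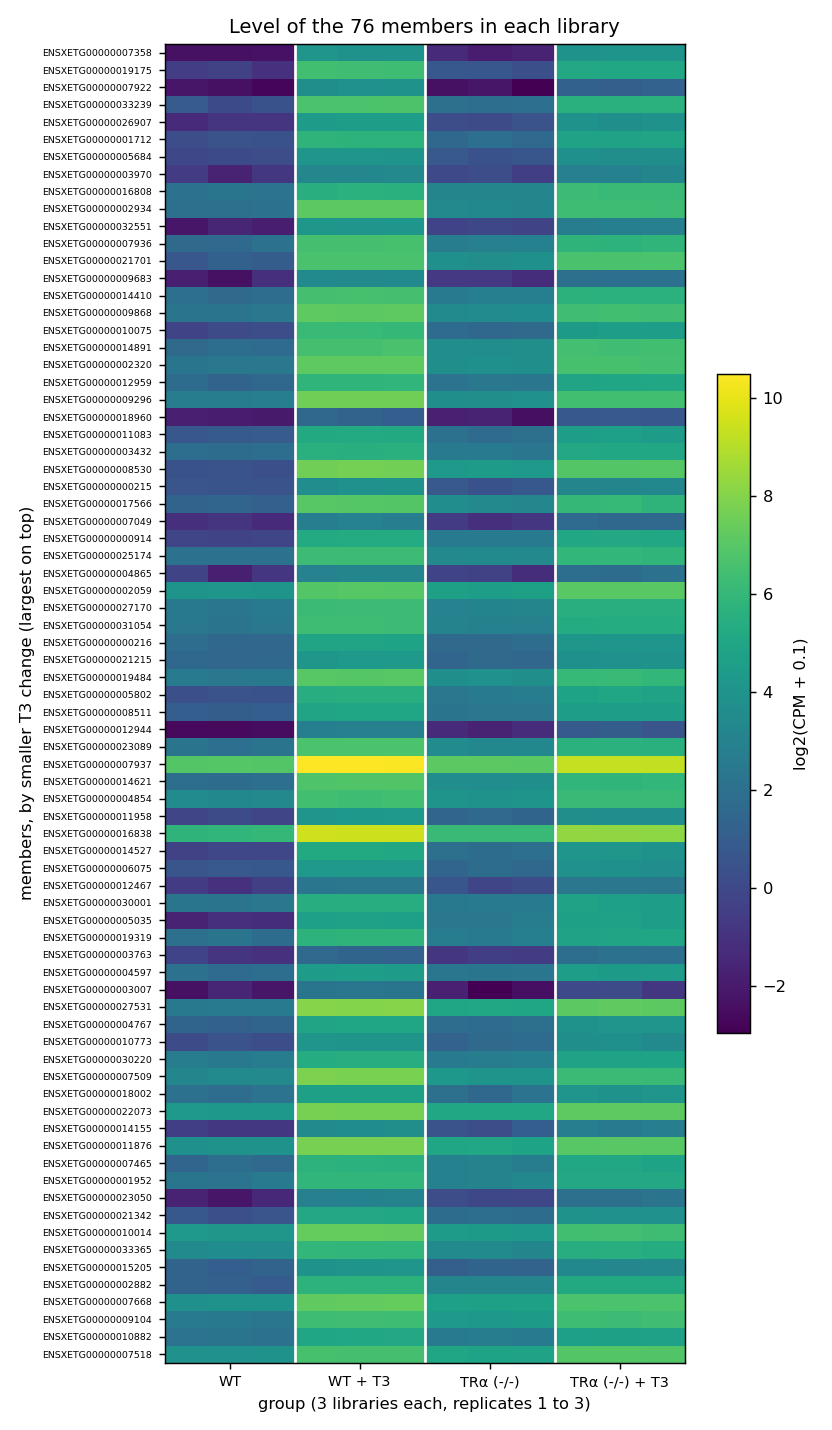
Level of each of the 76 genes, as log2(CPM + 0.1), in the 12 libraries. Columns are the libraries of the 4 groups and rows are ordered by the smaller of both T3 changes. The libraries of a group look alike, both T3 groups are brighter than their controls, and TRα (-/-) without T3 is brighter than WT in many rows.

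Ranked by the smaller of both changes, ENSXETG00000007358 (GL172791.1:371501-386871, + strand, 13 exon blocks) came first. It read 0.095, 0.0955 and 0.102 CPM in WT, 16.5, 15.4 and 14.6 CPM in WT with T3, 0.296, 0.158 and 0.228 CPM in TRα (-/-) and 15.3, 16 and 16.1 CPM in TRα (-/-) with T3. It was thus nearly silent without hormone in both genotypes, and its T3 libraries overlapped between WT and TRα (-/-). Its controls held 3 to 9 counts per library, so the change is given from the summed counts, as 158-fold (95% interval of the counts 85.8 to 329.9) in WT and 69.6-fold (95% interval of the counts 45.9 to 111) in TRα (-/-). ENSXETG00000019175 (GL172716.1:1825064-1843062, + strand, 18 exon blocks) came next and read 0.602, 0.669 and 0.383 CPM in WT, 85.4, 81.8 and 78.8 CPM in WT with T3, 1.58, 1.49 and 1.17 CPM in TRα (-/-) and 36, 33.6 and 34.7 CPM in TRα (-/-) with T3. Its T3 libraries did not overlap, those of TRα (-/-) being at 42.4% of the WT mean. ENSXETG00000007922 (GL173084.1:1014611-1015618, + strand, 1 exon block) read 0.127, 0.0955 and 0.0511 CPM in WT, 13.2, 14.5 and 15.2 CPM in WT with T3, 0.0987, 0.127 and 0.0285 CPM in TRα (-/-) and 2.2, 2.09 and 2.34 CPM in TRα (-/-) with T3. Here both controls were at 1 to 4 counts per library, and the summed counts gave 163-fold (95% interval of the counts 85.6 to 356) in WT and 26.7-fold (95% interval of the counts 13.3 to 62.5) in TRα (-/-). With T3 it was at 15.5% of the WT level in TRα (-/-), the lowest share among the 76 genes.

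The other genes of this group had higher controls than ENSXETG00000007358 and ENSXETG00000007922. ENSXETG00000033239 (GL172663.1:1682329-1691724, - strand, 17 exon blocks) read 1.74, 0.955 and 1.25 CPM in WT, 104, 104 and 108 CPM in WT with T3, 3.95, 3.64 and 3.76 CPM in TRα (-/-) and 47.9, 47.3 and 49.98 CPM in TRα (-/-) with T3. Its T3 level in TRα (-/-) was 45.9% of that in WT, and its untreated level was higher in TRα (-/-) in all libraries. ENSXETG00000026907 (GL173161.1:101875-124996, + strand, 4 exon blocks) read 0.285, 0.446 and 0.434 CPM in WT, 22.3, 22.8 and 23.9 CPM in WT with T3, 1.05, 1.01 and 1.31 CPM in TRα (-/-) and 15.4, 13.1 and 15.3 CPM in TRα (-/-) with T3. ENSXETG00000001712 (GL173276.1:391261-407439, + strand, 26 exon blocks) read 1.05, 1.27 and 1.25 CPM in WT, 54.5, 52.8 and 52.8 CPM in WT with T3, 2.83, 3.71 and 3.05 CPM in TRα (-/-) and 27.7, 27.4 and 29.4 CPM in TRα (-/-) with T3. Both showed the same order of groups, WT lowest, then TRα (-/-), then TRα (-/-) with T3, then WT with T3, without overlap between them. ENSXETG00000005684 (GL175049.1:16890-18465, - strand, 3 exon blocks) read 0.887, 0.955 and 1.07 CPM in WT, 16.3, 17.1 and 16 CPM in WT with T3, 1.64, 1.24 and 1.48 CPM in TRα (-/-) and 14, 12.6 and 13 CPM in TRα (-/-) with T3. ENSXETG00000003970 (GL173522.1:180170-184767, + strand, 6 exon blocks) read 0.57, 0.223 and 0.485 CPM in WT, 9.61, 9.56 and 10.2 CPM in WT with T3, 0.921, 1.04 and 0.626 CPM in TRα (-/-) and 7.49, 7.74 and 9.04 CPM in TRα (-/-) with T3. In this last pair the T3 levels of the genotypes lay close with TMM scaling, at 80.1% and 82.6% of WT in TRα (-/-), though still without overlap. Under total counts alone their log2 differences with T3 were -0.83 and -0.79. Over the 8 genes the change ran from 3.09 to 5.60 in TRα (-/-) and from 3.95 to 6.98 in WT.

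**Figure D3:**
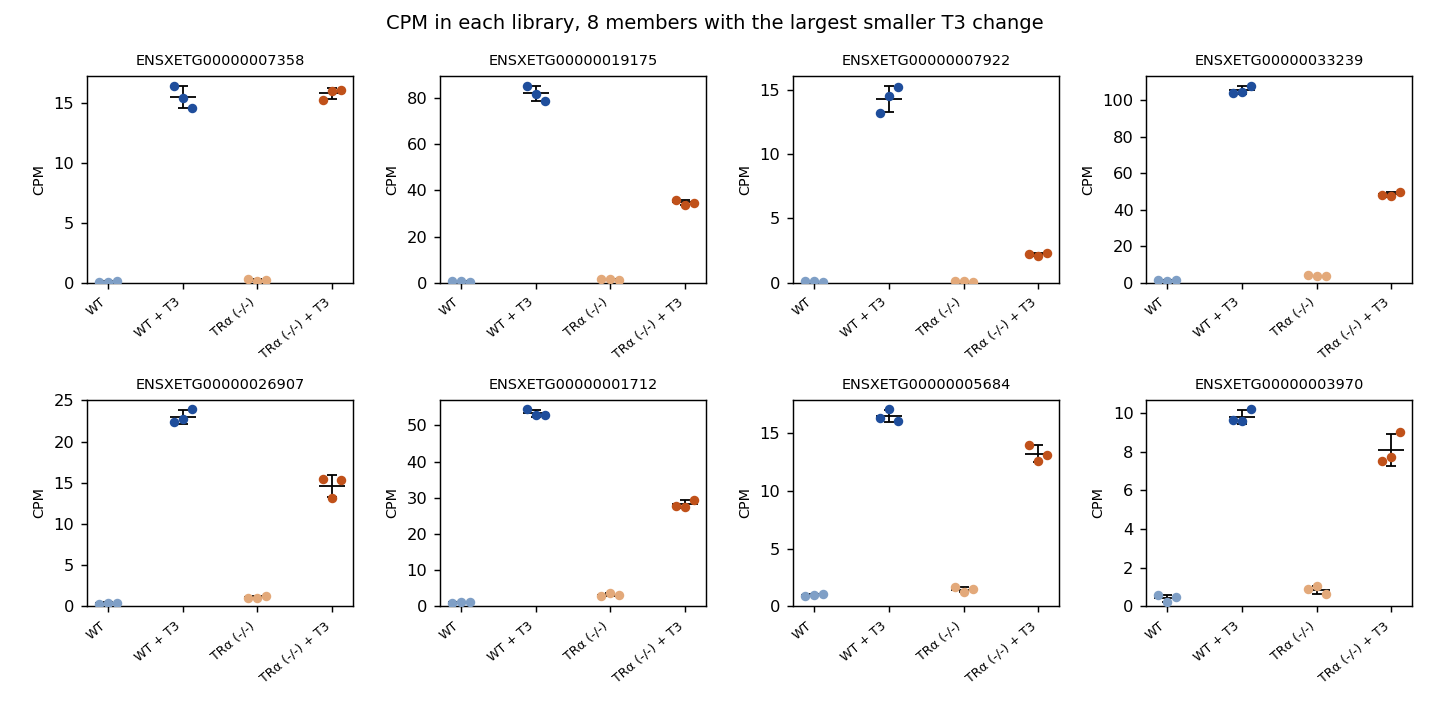
CPM in each library (points) with the mean and SD (bars, n = 3) for the 8 genes with the largest smaller T3 change. Each panel has its own axis from 0. In 7 of the 8 panels WT with T3 is the highest group, while for ENSXETG00000007358 both T3 groups lie at 14.6 to 16.5 CPM.

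The largest change in WT was that of ENSXETG00000008530 (GL173308.1:424973-440866, + strand, 12 exon blocks) at 7.21 log2 units. It read 1.27, 1.27 and 1.15 CPM in WT, 190.4, 204 and 195 CPM in WT with T3, 19.1, 21.2 and 19.9 CPM in TRα (-/-) and 119, 119.8 and 125 CPM in TRα (-/-) with T3. Its change in TRα (-/-) was 2.59, starting from a level that was already far above WT, while ENSXETG00000019175 and ENSXETG00000007358 followed in WT with 6.98 and 6.30. The largest changes in TRα (-/-) belonged to ENSXETG00000007358, ENSXETG00000019175 and ENSXETG00000007922, with 5.60, 4.53 and 3.65. All other members were below these in TRα (-/-).

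By abundance the group was led by ENSXETG00000007937 (GL173084.1:629331-635673, - strand, 9 exon blocks). It read 118, 122 and 117 CPM in WT, 1399, 1440.0 and 1349 CPM in WT with T3, 135, 137 and 134 CPM in TRα (-/-) and 639, 634 and 616 CPM in TRα (-/-) with T3. This gene was already well expressed without hormone, and its level per length was 49.6 CPM per kb in WT and 582 with T3, and 56.5 CPM per kb in TRα (-/-) and 262 with T3. ENSXETG00000016838 (GL173452.1:132624-137435, + strand, 8 exon blocks) read 56.1, 59.7 and 63.5 CPM in WT, 736, 706 and 708 CPM in WT with T3, 69.6, 68.3 and 68.3 CPM in TRα (-/-) and 314, 309 and 300.2 CPM in TRα (-/-) with T3. Its levels per length were 30.4, 364, 34.9 and 156 CPM per kb. Without T3 both genes differed little between the genotypes, and with T3 they were at 45.1% and 43% of the WT level in TRα (-/-). ENSXETG00000027531 (GL172692.1:2477366-2480546, + strand, 3 exon blocks, 720 bp of exon) read 5.54, 5.99 and 6.1 CPM in WT, 265, 259 and 261 CPM in WT with T3, 32.4, 33.6 and 30.9 CPM in TRα (-/-) and 139.5, 146 and 135 CPM in TRα (-/-) with T3. Per length it was near ENSXETG00000016838 in WT with T3, at 364 CPM per kb, and above it in TRα (-/-) with T3, at 195 against 156 CPM per kb. ENSXETG00000007509 and ENSXETG00000011876 came next by mean CPM in WT with T3. ENSXETG00000007509 (GL172638.1:894168-922578, - strand, 12 exon blocks) read 9.25, 10.5 and 10.3 CPM in WT, 231, 219.6 and 221 CPM in WT with T3, 18.6, 16.2 and 15.8 CPM in TRα (-/-) and 73.1, 74.9 and 71.2 CPM in TRα (-/-) with T3. ENSXETG00000011876 (GL173195.1:28040-51104, + strand, 11 exon blocks) read 13.7, 14.8 and 14.6 CPM in WT, 215, 213 and 209.6 CPM in WT with T3, 31.4, 32.6 and 28.8 CPM in TRα (-/-) and 129, 133 and 128 CPM in TRα (-/-) with T3. Both were alike in WT with T3, but ENSXETG00000007509 was at 32.6% and ENSXETG00000011876 at 61% of that level in TRα (-/-).

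The genotypes were then compared without T3, to ask how the levels of these genes differed where TRα was lost. The rule used the mean of each of these groups, though not this contrast, so the calls and p-values come from the fit over all genes tested but are not independent of the choice of genes, and nothing is read from the share of the 76 that was called. This holds for the comparison with T3 as well. Of the 76 genes, 39 (51.3%) were higher in TRα (-/-) and 0 were lower (edgeR, adjusted p under 0.05 and 2-fold or more). Among all genes tested 13.0% were higher and 7.35% lower. With the adjusted p alone 63 members were higher and 1 was lower, where 38.9% of all genes tested were higher and 38.3% lower, and an unadjusted p under 0.05 gave 63 and 1 as well. DESeq2 called 39 higher and 0 lower. The median log2 difference of the 76 genes was 1.02, where that of all genes was 0.01, and 71 of the 76 (93.4%) had a higher value in TRα (-/-), as had 50.9% of all genes. These counts rest on the noise between libraries of 1 RNA sample. When the libraries of each group were summed and a BCV (relative spread) of 0.4 between RNA samples was assumed, an alternative added after seeing the data, 2 members were called higher and 0 lower. No other value was tried, and the number called depends on the value assumed.

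Highest relative to WT was ENSXETG00000005035 (GL173348.1:301727-309052, + strand, 6 exon blocks) with a difference of 4.21 ± 0.181 (SE, n = 3, edgeR adjusted p 4.81e-17). It read 0.222, 0.35 and 0.332 CPM in WT, 25.1, 26.4 and 24.6 CPM in WT with T3, 5.13, 5.19 and 6.55 CPM in TRα (-/-) and 25.6, 26.3 and 23.1 CPM in TRα (-/-) with T3. Its T3 libraries overlapped between the genotypes. ENSXETG00000008530, given above, was next with 4.03 ± 0.0813 (SE, n = 3, edgeR adjusted p 7.29e-24). ENSXETG00000000914 (GL172746.1:2419809-2428202, + strand, 6 exon blocks) differed by 2.92 ± 0.107 (SE, n = 3, edgeR adjusted p 1.49e-18) and read 0.792, 0.764 and 0.792 CPM in WT, 39, 39.9 and 39.5 CPM in WT with T3, 5.86, 5.89 and 6.04 CPM in TRα (-/-) and 33.8, 35.1 and 33.1 CPM in TRα (-/-) with T3. ENSXETG00000021701 (GL172699.1:2367810-2382069, - strand, 17 exon blocks) differed by 2.84 ± 0.083 (SE, n = 3, edgeR adjusted p 1.36e-20) and read 1.52, 2.2 and 1.92 CPM in WT, 97.8, 100.4 and 97.7 CPM in WT with T3, 13.8, 12.9 and 13.8 CPM in TRα (-/-) and 100.04, 98.1 and 103 CPM in TRα (-/-) with T3. In these 4 genes the untreated TRα (-/-) libraries lay well above all WT libraries. With T3 and TMM scaling, ENSXETG00000005035, ENSXETG00000000914 and ENSXETG00000021701 ended at 98.8%, 86.2% and 102% of the WT level. Of these, ENSXETG00000000914 was lower than WT by -0.21 ± 0.0357 (SE, n = 3, edgeR adjusted p 7.29e-06). Under total counts alone the 3 genes were lower in TRα (-/-) with T3, at -0.52, -0.72 and -0.48.

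At the lower end of the genes called higher, the difference was just past 2-fold. It was 1.02 ± 0.241 (SE, n = 3, edgeR adjusted p 0.000504) for ENSXETG00000012467, 1.03 ± 0.0794 (SE, n = 3, edgeR adjusted p 9.00e-12) for ENSXETG00000016808, 1.03 ± 0.0575 (SE, n = 3, edgeR adjusted p 1.16e-14) for ENSXETG00000009296 and 1.05 ± 0.0981 (SE, n = 3, edgeR adjusted p 3.48e-10) for ENSXETG00000007936. Each of these calls was lost when 1 library was left out, since the value was then below 1. ENSXETG00000012467 was at 0.76 without replicate 1 of TRα (-/-) and at 0.85 without replicate 2 of WT, ENSXETG00000016808 at 0.98 without replicate 1 of WT and ENSXETG00000009296 at 0.98 without replicate 3 of TRα (-/-). ENSXETG00000007936 was at 0.99, 0.97 and 0.999 without replicate 1 of WT, replicate 2 of WT and replicate 3 of TRα (-/-). Under total counts alone these calls were lost as well, at 0.925, 0.94, 0.94 and 0.96 in the same order of genes. The call of ENSXETG00000007358, at 1.19 ± 0.439 (SE, n = 3, edgeR adjusted p 0.0297), was lost without any 1 of replicates 1, 2 and 3 of WT (edgeR adjusted p 0.0577, 0.0574 and 0.0581), without replicate 3 of TRα (-/-) (edgeR adjusted p 0.0557) and without replicate 1 of TRα (-/-), where its value was 0.97 (edgeR adjusted p 0.125). The 5 members with a value below 0 were ENSXETG00000033365 at -0.18 ± 0.0648 (SE, n = 3, edgeR adjusted p 0.0171), ENSXETG00000003007 at -0.59 ± 0.621 (SE, n = 3, edgeR adjusted p 0.39), ENSXETG00000018002 at -0.13 ± 0.118 (SE, n = 3, edgeR adjusted p 0.326), ENSXETG00000007922 at -0.09 ± 0.639 (SE, n = 3, edgeR adjusted p 0.904) and ENSXETG00000018960 at -0.01 ± 0.492 (SE, n = 3, edgeR adjusted p 0.981). Of these only ENSXETG00000033365 passed the adjusted p, with a difference far under 2-fold.

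With T3 the calls were in the other direction. In TRα (-/-) 18 (23.7%) of the 76 genes were lower than in WT and 0 were higher (edgeR, adjusted p under 0.05 and 2-fold or more), where 3.77% and 11.4% of all genes tested were. The adjusted p alone gave 66 lower and 4 higher, as did an unadjusted p under 0.05, where 37.7% and 37.6% of all genes tested passed the adjusted p. DESeq2 called 18 lower and 0 higher. The median difference was -0.71, against -0.01 over all genes, and the level in TRα (-/-) with T3 had a median of 61.3% of that in WT with T3. The level was under 50% of WT for 18 genes, between 50% and 100% for 51 and above WT for 7. This contrast depended on the scaling. Under total counts alone all genes shifted by a median of -0.51 and 54 members were called lower with T3. With an assumed BCV of 0.4 between RNA samples, 0 members were called in either direction.

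The strongest shortfall was that of ENSXETG00000007922, given above, at -2.70 ± 0.0943 (SE, n = 3, edgeR adjusted p 9.10e-19). ENSXETG00000003007 (GL174555.1:6647-18188, + strand, 16 exon blocks) followed at -2.56 ± 0.165 (SE, n = 3, edgeR adjusted p 3.10e-13) and read 0.095, 0.255 and 0.128 CPM in WT, 4.76, 4.93 and 4.71 CPM in WT with T3, 0.197, 0.0317 and 0.0854 CPM in TRα (-/-) and 0.915, 0.97 and 0.481 CPM in TRα (-/-) with T3. Its controls and its T3 libraries in TRα (-/-) held few counts, and the T3 change from summed counts was 30.7-fold (95% interval of the counts 18.8 to 54) in WT and 7.9-fold (95% interval of the counts 4.11 to 17) in TRα (-/-). ENSXETG00000012944 (GL173114.1:648500-685614, - strand, 2 exon blocks) differed by -2.11 ± 0.104 (SE, n = 3, edgeR adjusted p 1.27e-15) and read 0.0634, 0.0637 and 0.0766 CPM in WT, 6.99, 7.47 and 7.37 CPM in WT with T3, 0.296, 0.222 and 0.313 CPM in TRα (-/-) and 1.71, 1.89 and 1.41 CPM in TRα (-/-) with T3. From summed counts its T3 change was 107-fold (95% interval of the counts 51.6 to 266) in WT and 6.08-fold (95% interval of the counts 4.05 to 9.46) in TRα (-/-). ENSXETG00000007509, an abundant member given above, differed by -1.61 ± 0.0453 (SE, n = 3, edgeR adjusted p 7.82e-21). In each of these genes the libraries of TRα (-/-) with T3 lay under those of WT with T3 without overlap. ENSXETG00000003007, ENSXETG00000012944 and ENSXETG00000018960 met the 2 CPM of the rule in WT with T3 alone, at means of 4.80, 7.28 and 2.39 CPM. In TRα (-/-) with T3 their means were 0.789, 1.67 and 1.57 CPM. The choice of these genes thus favoured a lower level in TRα (-/-) with T3, and nothing is read from their p-values. ENSXETG00000003007 and ENSXETG00000012944 are among the 18 called lower with T3, and ENSXETG00000018960 is among the 66 lower by adjusted p alone.

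The calls nearest to 2-fold were ENSXETG00000017566 at -1.01 ± 0.0519 (SE, n = 3, edgeR adjusted p 3.35e-15), ENSXETG00000023089 at -1.07 ± 0.038 (SE, n = 3, edgeR adjusted p 1.18e-18), ENSXETG00000014527 at -1.12 ± 0.0536 (SE, n = 3, edgeR adjusted p 7.50e-16) and ENSXETG00000033239 at -1.13 ± 0.0397 (SE, n = 3, edgeR adjusted p 1.08e-18). ENSXETG00000017566 (GL173194.1:185104-202785, + strand, 23 exon blocks) read 2.41, 2.58 and 2.12 CPM in WT, 129.8, 123 and 121 CPM in WT with T3, 12.2, 10.4 and 9.6 CPM in TRα (-/-) and 63.3, 66.1 and 56.1 CPM in TRα (-/-) with T3. Its call was lost without replicate 3 of TRα (-/-) with T3, at -0.94, and without replicate 1 of WT with T3, at -0.98. ENSXETG00000023089 (GL173116.1:866957-880728, - strand, 14 exon blocks) read 4.59, 3.79 and 4.47 CPM in WT, 102, 104 and 102 CPM in WT with T3, 11.3, 9.85 and 9.99 CPM in TRα (-/-) and 50.1, 49.1 and 46.9 CPM in TRα (-/-) with T3. ENSXETG00000014527 (GL172656.1:1881808-1895928, - strand, 10 exon blocks) read 0.697, 0.828 and 0.843 CPM in WT, 37.4, 37.2 and 34.8 CPM in WT with T3, 3.88, 3.39 and 3.73 CPM in TRα (-/-) and 17.2, 17.6 and 15.4 CPM in TRα (-/-) with T3. In both, TRα (-/-) with T3 stood a little under 50% of the WT level, at 47.5% and 45.9%.

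Among the 7 members with a higher mean in TRα (-/-) with T3, 4 passed the adjusted p, all by less than 2-fold. ENSXETG00000016808 (GL172670.1:1588856-1590179, + strand, 1 exon block) differed by 0.63 ± 0.0379 (SE, n = 3, edgeR adjusted p 7.86e-14) and read 4.12, 4.68 and 4.39 CPM in WT, 45.3, 49.96 and 46.9 CPM in WT with T3, 8.82, 9.25 and 8.83 CPM in TRα (-/-) and 77.2, 71.6 and 71.5 CPM in TRα (-/-) with T3. It was higher in TRα (-/-) both without and with T3, without overlap, and its difference with T3 was 0.12 under total counts alone. ENSXETG00000003763 differed by 0.59 ± 0.122 (SE, n = 3, edgeR adjusted p 0.000112), which became 0.08 under total counts alone, and read 0.729, 0.446 and 0.383 CPM in WT, 3.0, 2.54 and 2.3 CPM in WT with T3, 0.461, 0.633 and 0.541 CPM in TRα (-/-) and 3.68, 4.28 and 3.75 CPM in TRα (-/-) with T3. For ENSXETG00000007518, at 0.33 ± 0.0386 (SE, n = 3, edgeR adjusted p 2.80e-08), and ENSXETG00000002059, at 0.10 ± 0.0361 (SE, n = 3, edgeR adjusted p 0.0147), the direction flipped under total counts alone, to -0.18 and -0.41. ENSXETG00000007518 read 14, 14.3 and 15.1 CPM in WT, 96.5, 90.5 and 92 CPM in WT with T3, 30.6, 28.4 and 27.8 CPM in TRα (-/-) and 117, 119 and 114 CPM in TRα (-/-) with T3. Its untreated difference was 0.99 ± 0.0504 (SE, n = 3, edgeR adjusted p 1.48e-15), just under the 2-fold line. It passed that line without replicate 3 of WT, at 1.03, and without replicate 2 or 3 of TRα (-/-), at 1.01 and 1.02. Without replicate 3 of TRα (-/-) with T3 it reached the line as well, at 1. The other 3 of the 7, ENSXETG00000021701, ENSXETG00000007358 and ENSXETG00000012467, differed by 0.02, 0.03 and 0.02, and their directions flipped as well under total counts alone.

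**Figure D4:**
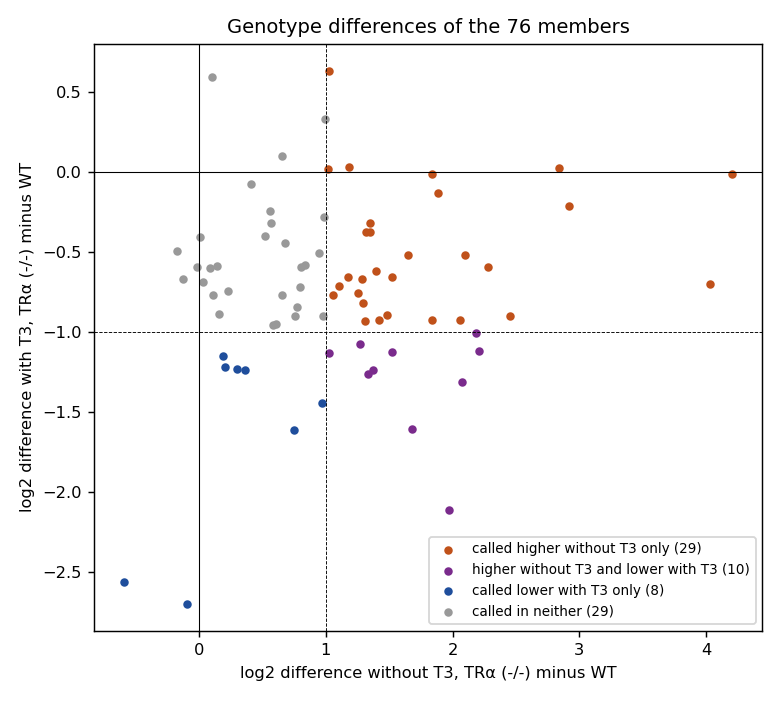
Log2 difference between TRα (-/-) and WT without T3 (x axis) and with T3 (y axis) for the 76 genes, from the edgeR fit. Dashed lines mark 2-fold and colours mark the calls, where 39 genes were called higher without T3, 18 were called lower with T3 and 10 of these were both.

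Taking both contrasts, 10 genes were called higher without T3 and lower with it, 29 were called higher without T3 alone, 8 were called lower with T3 alone and 29 were called in neither. Of all genes tested 1.18%, 10.3%, 2.38% and 68.8% fell into these classes. The classes depended on the scaling. Under total counts alone 54 members were called lower with T3 in place of 18, and 35 higher without T3 in place of 39. ENSXETG00000008530, here called higher without T3 alone, was then also called lower with T3, at -1.20. The difference between both contrasts of a gene equals the difference of its T3 changes. The choice of genes set a lower limit on each of these changes, so the combination was not tested. The 10 genes called in both had a median change of 5.56 in WT and 2.58 in TRα (-/-), and with T3 they stood at a median of 44.0% of the WT level. In the 29 called higher without T3 alone, medians were 4.75 in WT and 2.28 in TRα (-/-), with 65.1% of the WT level. The 8 called lower with T3 alone had the lowest median controls, 0.413 CPM in WT and 0.521 CPM in TRα (-/-), and a median of 39.6% of the WT level with T3. Not all 8 were low without T3. The class also held ENSXETG00000007937 and ENSXETG00000016838, with means of 118.9 and 59.8 CPM in WT, the only 2 members above 20 CPM there. ENSXETG00000007509, with a mean of 10.0 CPM in WT, was in this class too. The 29 called in neither had the smallest median change in WT, 3.22, and 2.15 in TRα (-/-).

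On the scale of each gene's own WT response on log2(mean CPM + 0.1), with WT at 0 and WT with T3 at 1, TRα (-/-) without T3 stood at a median of 0.227 and TRα (-/-) with T3 at 0.823. The first ran from -0.08 to 0.641 and the second from 0.419 to 1.26. In linear terms the gain in CPM with T3 in TRα (-/-) had a median of 52.9% of the gain in WT. WT without T3 enters both places, so they are not independent of each other. ENSXETG00000005035 was furthest along without hormone, at 0.641, followed by ENSXETG00000008530 at 0.544. All 76 genes were above the WT control in TRα (-/-) with T3, and 7 were past WT with T3.

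**Figure D5:**
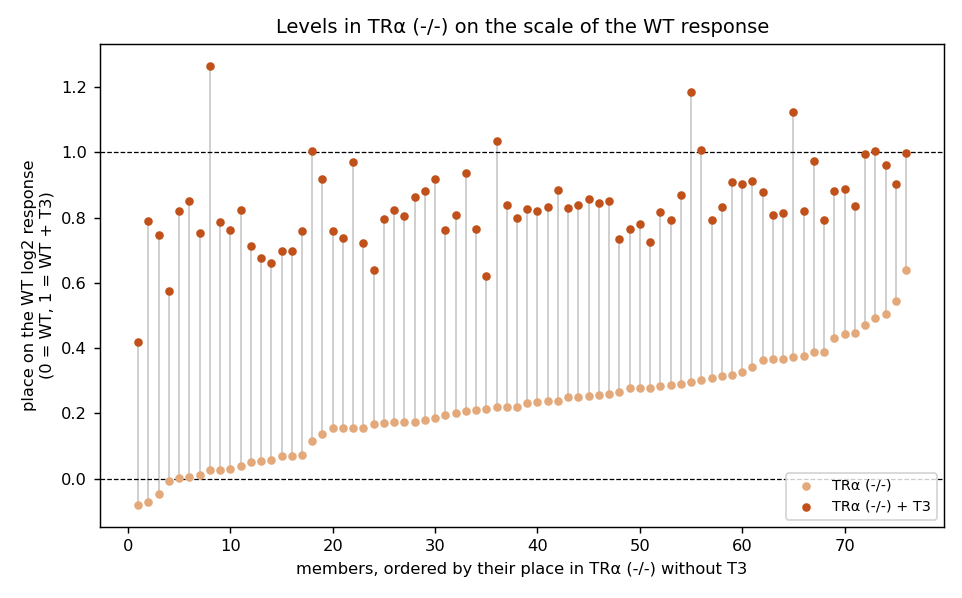
Place of TRα (-/-) without T3 (light points) and with T3 (dark points) on the WT log2 response of each of the 76 genes, where 0 is WT and 1 is WT with T3 (dashed lines). The light points run from -0.08 to 0.641 and the dark points from 0.419 to 1.26, with medians of 0.227 and 0.823.

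With TMM scaling the T3 responses of both genotypes lay closest in 4 genes, in each of which the response was still smaller in TRα (-/-). They were ENSXETG00000033365, at 2.36 in WT and 2.04 in TRα (-/-), ENSXETG00000016808, at 3.40 and 3.02, ENSXETG00000021215, at 2.70 and 2.29, and ENSXETG00000004597, at 2.61 and 2.13. This ranking depended on the scaling. Under total counts alone the genotype differences of these 4 in the same order were -0.27, 0.94, -0.08 and 0.32 without T3. With T3 they were -0.9995, 0.12, -0.92 and -0.58. Those of ENSXETG00000003763 were 0.007 without T3 and 0.08 with it, so its responses then lay closer than those of the 4. ENSXETG00000033365 (GL172946.1:299234-309389, - strand, 11 exon blocks) read 11.2, 12 and 11.4 CPM in WT, 62, 59 and 58.3 CPM in WT with T3, 10.9, 10.7 and 9.2 CPM in TRα (-/-) and 42.1, 44.3 and 40.9 CPM in TRα (-/-) with T3. ENSXETG00000021215 (GL175504.1:571-3198, + strand, 12 exon blocks) read 2.82, 2.71 and 2.91 CPM in WT, 17.8, 19.6 and 19.2 CPM in WT with T3, 2.63, 3.17 and 2.71 CPM in TRα (-/-) and 13.7, 14.3 and 14.7 CPM in TRα (-/-) with T3. ENSXETG00000004597 (GL172759.1:669874-675138, + strand, 6 exon blocks) read 4.02, 3.28 and 3.65 CPM in WT, 22.3, 23.4 and 22.5 CPM in WT with T3, 4.93, 4.78 and 4.87 CPM in TRα (-/-) and 22.6, 20.7 and 21.4 CPM in TRα (-/-) with T3. Without T3 the libraries of both genotypes overlapped in ENSXETG00000021215, whose difference was 0.01 ± 0.114 (SE, n = 3, edgeR adjusted p 0.965). With T3 it was lower in TRα (-/-) by -0.41 ± 0.0638 (SE, n = 3, edgeR adjusted p 2.87e-06). ENSXETG00000004597 differed by -0.08 ± 0.0554 (SE, n = 3, edgeR adjusted p 0.208) with T3 and TMM scaling. The WT changes of these genes were 3.40 or less, under the lower quartile of the 76 genes, 3.47.

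The members were also described by their starting level. The 22 genes under 1 CPM in WT had median changes of 4.88 in WT and 2.57 in TRα (-/-), the 35 genes from 1 to 5 CPM had 4.197 and 2.29, the 17 genes from 5 to 20 CPM had 3.80 and 2.11, and the 2 genes above had 3.57 and 2.19. Genes with a low start can reach a larger fold by construction, and the starting level is part of the change.

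The annotation of the deposited file gives the length and the exons of each gene. Their exon length had a median of 1988 bp, against 1761 bp over all genes tested, and ran from 375 to 6219 bp. They had a median of 12 exon blocks, where all genes tested had 9, and 4 of the 76 (5.26%) had 1 exon block, as had 4.39% of all genes tested. The 4 were ENSXETG00000007922, ENSXETG00000016808, ENSXETG00000000215 and ENSXETG00000009683. Exons of 2 members, ENSXETG00000001952 and ENSXETG00000009104, overlapped those of another gene, which makes their counts uncertain because the use of strand in counting is not stated. The 76 genes lay on 71 scaffolds, which are of unequal length, and 2 pairs were next to each other in the order of genes.

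The first pair was ENSXETG00000000216 (GL172744.1:639462-650007, - strand, 16 exon blocks) and ENSXETG00000000215 (GL172744.1:650196-651212, + strand, 1 exon block). They are on opposite strands, 188 bp apart and divergent, with their starts on either side of the gap. ENSXETG00000000216 read 3.52, 2.93 and 2.71 CPM in WT, 29.4, 30.04 and 28.5 CPM in WT with T3, 3.16, 3.13 and 3.5 CPM in TRα (-/-) and 17.6, 17.1 and 16.9 CPM in TRα (-/-) with T3. ENSXETG00000000215 read 1.43, 1.34 and 1.28 CPM in WT, 12.5, 14.5 and 14.9 CPM in WT with T3, 1.61, 1.27 and 1.57 CPM in TRα (-/-) and 8.92, 9.23 and 9.87 CPM in TRα (-/-) with T3. The changes of the pair were alike, at 3.22 and 3.28 in WT and 2.36 and 2.58 in TRα (-/-), and the untreated genotypes overlapped in both genes. Reads of such close genes can be given to either one, and this was not tested. The nearest tested genes on both sides, ENSXETG00000000217 and ENSXETG00000000201, had changes of 0.04 and -0.79 in WT and 0.71 and -1.02 in TRα (-/-).

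The second pair was the abundant ENSXETG00000007937 with ENSXETG00000007936 (GL173084.1:653004-662812, + strand, 12 exon blocks) 17330 bp apart and also divergent. ENSXETG00000007936 read 3.07, 2.99 and 4.06 CPM in WT, 91.6, 93.3 and 96.2 CPM in WT with T3, 6.25, 7.41 and 7.57 CPM in TRα (-/-) and 55.8, 52.9 and 56.6 CPM in TRα (-/-) with T3. Per length it was at 42.3 CPM per kb in WT with T3, where ENSXETG00000007937 was at 582. Without T3 the pair differed in their genotype contrast, 0.19 ± 0.0339 (SE, n = 3, edgeR adjusted p 1.96e-05) for ENSXETG00000007937 and 1.05 for ENSXETG00000007936. Another member, ENSXETG00000007922, lies on the same scaffold, 351798 bp further, with 9 genes in between. Of the genes between, the tested ones had T3 changes from -1.39 to 0.33 in WT and from -0.18 to 0.65 in TRα (-/-). On the other side ENSXETG00000016718, 3 genes before ENSXETG00000007937, had a change of 3.15 in WT and 0.84 in TRα (-/-). High T3 changes were thus seen at single genes of this stretch and not along all of it.

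The 76 genes were last set beside the 970 genes that passed the 4-fold rule in WT and not in TRα (-/-). The 970 genes had a median change of 2.68 in WT and 0.93 in TRα (-/-). The difference between both changes had a median of -1.79 in the 970 genes and -1.75 in the 76. In the 970 genes it is negative by the choice of genes. Without T3, 636 of the 970 (65.6%) were called higher in TRα (-/-) and 0 lower, against 51.3% and 0 of the 76, and their median difference was 1.35 against 1.02. On the scale of the WT response TRα (-/-) without T3 stood at a median of 0.470 in the 970 genes and 0.227 in the 76. With T3 both lists ended at similar places, at medians of 0.812 and 0.823. With T3, 157 of the 970 (16.2%) were called lower in TRα (-/-), against 23.7% of the 76. The difference between the lists was not tested, because a gene with a high untreated level in TRα (-/-) is less likely to pass the 4-fold rule there. Exon lengths had medians of 1656.5 and 1988 bp.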

How the data were processed

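RNA was measured in 12 libraries, 3 for each of 4 groups, grouped by their titles. Per the study's methods, poly-A RNA went into TruSeq libraries that were read as 100 nt paired ends, mapped with STAR to the Ensembl JGI 4.2 genome and counted with featureCounts. The submitters' processing notes name STAR 2.5.3a and featureCounts 1.4.6-p3, and the study's methods other versions. The deposited table holds raw counts for each gene, not normalized by the authors, beside exon coordinates and summed exon length. Every column was mapped to a sample by its name, and 0 columns were left over. How strand and multiply mapped reads were treated is not given in the sources used here.

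Of 19921 genes, 2363 had no count and filterByExpr kept 14320. All 12 libraries, TMM-scaled, entered 1 quasi-likelihood fit with a mean for each group (edgeR 4.0.16, glmQLFit and glmQLFTest, R 4.3.3), and p-values were adjusted by Benjamini-Hochberg over all genes tested. The SE of a log2 difference is its size over the square root of the F statistic. Calls needed an adjusted p under 0.05 and 2-fold or more. The common BCV was 0.0421. A T3 fold of a gene with few counts comes from summed counts with an exact interval (95%), which covers counting error only. Alternatives were DESeq2 1.42.0 (the authors' tool), its size factors, total counts alone, other filters, the replicate block, fits of the compared groups, a test against 2-fold, other settings of the rule and leaving out each library. Libraries of 1 RNA sample differed by more than sampling noise, with 1.86 or more chi-square per degree of freedom, and each was kept.

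Members and lists were chosen with earlier results of these data known. Named are the members highest by the smaller T3 change (8), by the change in WT and in TRα (-/-) (3 each), by CPM in WT with T3 (5) and by CPM per kb in TRα (-/-) with T3 (3), the called members with the 4 highest and 4 lowest genotype differences without and with T3, the 4 with the most equal T3 changes, 3 genes on each side of the threshold and members next to each other. ENSXETG00000002059, ENSXETG00000003763, ENSXETG00000018002, ENSXETG00000018960, ENSXETG00000009683, ENSXETG00000001952 and the genes that are no members were named after their values were seen. The RefSeq name table (UCB_Xtro_10.0, 28858 entries) holds 0 of the Ensembl IDs, so gene symbols, the lists of pathway and marker genes, and the targeted gene were not used here, and no sequence is shown.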

Additional observations from a re-analysis of the deposited data

How the results depend on the processing

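Each group is 1 RNA sample, so how many members differ between genotypes rests on a spread that was not measured. With summed libraries and an assumed BCV of 0.4, added after seeing the data, 2 were higher without T3 and 0 were lower with T3. These numbers depend on the assumed value, the only one tried. Total counts alone gave 35 higher without T3 in place of 39, and 54 lower with T3 in place of 18. Its medians were 0.93 without T3, -1.21 with T3 and -2.19 for the difference of T3 changes, in place of 1.02, -0.71 and -1.77 in the fit. Under it 3 members without T3 and 5 with T3 changed sign. The median with T3 was -0.75 under DESeq2 and -0.75 under its size factors, and the median difference of T3 changes was -1.69 over the 64 members with at least 10 counts in every library. Adjusted p alone gave 63 higher and 1 lower without T3, and 4 higher and 66 lower with T3. Adding 1 to the group means left 42 members.

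Leaving out each library gave 74 to 78 members, 36 to 41 higher and 0 lower without T3, and 17 to 18 lower and 0 higher with T3. The medians then ran from 0.98 to 1.11 without T3, from -0.71 to -0.70 with T3 and from -1.78 to -1.73 for the difference of T3 changes. The labels link libraries with the same replicate number by that number alone. Their deviations from the group means correlated at -0.24 to 0.31 in 18 pairs, with 4 above 0.1. Whether such libraries shared a batch was not tested. Under the replicate block, 39 members were higher without T3 and 18 lower with T3, as without it, and the medians were 1.02, -0.71 and -1.77. For the 68 genotype differences of 34 named genes, 594 values were compared with the main fit. Of the 12 leave-one-out fits, only the lowest and the highest value of each difference entered. Among the 594 values 0 reversed a call, 11 lost one and 12 gained one. Calls lost in the other leave-one-out fits are named with their genes above and are not in these counts.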

Other observations

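The 4-fold rule was passed in TRα (-/-) and not in WT by 3 genes, which were looked at after their values were seen and are given as values. ENSXETG00000033506, on scaffold GL172801.1 from 888141 to 892519, read 5.0, 5.54 and 3.52 CPM in WT, 2.1, 2.69 and 2.61 CPM in WT with T3, 3.09, 3.42 and 3.39 CPM in TRα (-/-) and 28, 28.6 and 24.4 CPM in TRα (-/-) with T3. Its T3 change was -0.90 in WT and 2.99 in TRα (-/-). ENSXETG00000004097, on scaffold GL172961.1 from 1156508 to 1161648, read 11.8, 11.4 and 11.4 CPM in WT, 28.7, 29.3 and 29.6 CPM in WT with T3, 4.9, 4.12 and 4.56 CPM in TRα (-/-) and 23.6, 23.8 and 23 CPM in TRα (-/-) with T3. It was lower in TRα (-/-) in both conditions, with a change of 1.33 in WT and 2.35 in TRα (-/-). ENSXETG00000000337, on scaffold GL173028.1 from 346863 to 351187, read 4.81, 4.9 and 4.96 CPM in WT, 5.89, 6.29 and 6.73 CPM in WT with T3, 4.34, 4.53 and 3.99 CPM in TRα (-/-) and 20.6, 20.7 and 21.6 CPM in TRα (-/-) with T3. Its change was 0.36 in WT and 2.26 in TRα (-/-), from controls with means of 4.89 and 4.29 CPM.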
